A study of Mus musculus with 6 samples.

Results

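The nuclear-encoded subunits of the mitochondrial respiratory chain were followed in whole-brain RNA of mice in which HuR could be deleted in neurons. Members were the genes whose symbol in the array annotation began with 1 of 16 prefixes: Ndufa, Ndufb, Ndufc, Ndufs, Ndufv, Sdha, Sdhb, Sdhc, Sdhd, Uqcr, Cox4, Cox5, Cox6, Cox7, Cox8 or Atp5. Ndufaf assembly factors and pseudogene symbols were left out. The rule used names alone and found 83 of the 22180 genes that had a probeset of their own. Of these, 81 passed a filter on brightness and made up 0.487% of the 16635 genes tested.

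HuR, encoded by Elavl1, is an RNA-binding protein that acts on the stability and translation of many mRNAs. The 3 KO mice were Thy1Cre-ERT2-EYFPHuRf/f, with 2 floxed alleles of the gene. The 3 WT mice were Thy1Cre-ERT2-EYFPHuRf/+, with 1 floxed allele, so that recombination leaves them an intact copy. Both groups carried the tamoxifen-inducible Cre with its fluorescent reporter, driven by the neuronal Thy1 promoter, and both received tamoxifen at 10 and 11 weeks of age. Mice of either sex were used, and brains were taken at 91 days. Cells in which Thy1 does not drive Cre keep the gene, and whole brain mixes them with neurons. Each mouse gave 1 Affymetrix Mouse Gene 2.0 ST array, labelled from 150 ng of RNA. The labels name no litters or batches, and p-values reflect only how these 6 arrays vary.

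The respiratory chain sits in the inner mitochondrial membrane. Complexes I and II pass electrons from NADH and succinate to ubiquinone, complex III passes them to cytochrome c and complex IV to oxygen, and complex V, the ATP synthase, uses the proton gradient built by complexes I, III and IV to make ATP. Most subunits are encoded in the nucleus and imported, while a hydrophobic core is encoded in mitochondrial DNA. Neurons depend on the chain for the ATP that restores ion gradients and loads synaptic vesicles. Promoters of these genes are known for sites of NRF1, of ETS-family factors such as GABP, and of YY1 and SP1.

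By the probesets used, a few complex V genes lay toward opposite ends of a difference between arrays described further on. Their promoter windows are printed for this reason. Each runs from 250 bases before to 50 bases after the start of the gene, 5′ to 3′ on the strand of the gene, from RefSeq on GRCm38.p6. Capitals mark matches on either strand to NRF1 (GCGCANGCG), ETS (CCGGAAG), YY1 (AAGATGG) or SP1 (GGGCGG). Atp5e (epsilon subunit of the rotor) lies at chr2:174464052-174464351 on the minus strand, and Atp5k (subunit e of the membrane sector) at chr5:108434350-108434649 on the minus strand. Atp5b (the catalytic beta subunit) lies at chr10:128083057-128083356 and Atp5d (delta subunit of the rotor) at chr10:80142025-80142324, both on the plus strand.
Atp5e: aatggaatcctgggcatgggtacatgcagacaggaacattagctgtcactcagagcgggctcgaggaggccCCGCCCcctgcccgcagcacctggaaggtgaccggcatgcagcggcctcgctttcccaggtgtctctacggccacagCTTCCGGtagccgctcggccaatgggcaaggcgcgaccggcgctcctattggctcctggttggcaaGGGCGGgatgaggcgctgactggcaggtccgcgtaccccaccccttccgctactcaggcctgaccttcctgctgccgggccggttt
Atp5k: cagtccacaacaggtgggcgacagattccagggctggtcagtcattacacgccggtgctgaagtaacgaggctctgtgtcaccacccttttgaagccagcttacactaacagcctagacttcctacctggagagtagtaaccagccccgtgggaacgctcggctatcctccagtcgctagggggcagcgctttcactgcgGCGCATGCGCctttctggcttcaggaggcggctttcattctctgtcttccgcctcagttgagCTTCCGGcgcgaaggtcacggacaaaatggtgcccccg
Atp5b: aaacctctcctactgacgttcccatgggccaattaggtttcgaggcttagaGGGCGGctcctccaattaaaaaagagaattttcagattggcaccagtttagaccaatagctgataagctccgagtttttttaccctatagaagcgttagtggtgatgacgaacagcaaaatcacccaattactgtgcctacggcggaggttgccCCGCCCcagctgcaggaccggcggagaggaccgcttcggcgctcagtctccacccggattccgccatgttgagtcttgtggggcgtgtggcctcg
Atp5d: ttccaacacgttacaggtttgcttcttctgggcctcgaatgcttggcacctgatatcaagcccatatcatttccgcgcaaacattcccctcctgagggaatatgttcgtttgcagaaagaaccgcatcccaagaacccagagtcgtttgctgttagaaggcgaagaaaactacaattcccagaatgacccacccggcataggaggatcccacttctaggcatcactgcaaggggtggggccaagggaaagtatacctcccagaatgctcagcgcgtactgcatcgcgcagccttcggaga
In Atp5e, the ETS match began 102 bases before the start site and the SP1 matches 179 and 36 bases before it. In Atp5k, overlapping NRF1 matches on both strands began 50 and 49 bases before the start site, and the ETS match lay just inside the transcribed part. Atp5b held 2 SP1 matches, and Atp5d held none of the 4 motifs. These 4 genes were picked by that difference between arrays, and a link between it and the motifs was not tested.

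A RefSeq window was given for 69 of the 83 members. NRF1 matches stood in 19 of the 69 windows (27.5%), against 11.3% of the 12866 tested genes with a window, and ETS matches also in 19 (27.5%), against 14.4%. YY1 matches stood in 9 member windows (13%), against 6.61%. The SP1 motif was present in 46.4% of member windows, against 57.6% of those of tested genes, and TATAAA in 13%, against 8.54%. At least 1 of NRF1, ETS and YY1 was found in 58% of member windows, against 28.1%, while the median GC content was 58.33% in members and 59.67% in tested genes. By complex, such a match stood in all 7 windows of complex II, 3 of 4 of complex III, 10 of 15 of complex V, 16 of 29 of complex I and 4 of 14 of complex IV. The windows of complex II include those of Sdhaf1 to Sdhaf4, assembly factors that are not subunits. These shares describe letters in the windows and were not tested.

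**Figure D1:**
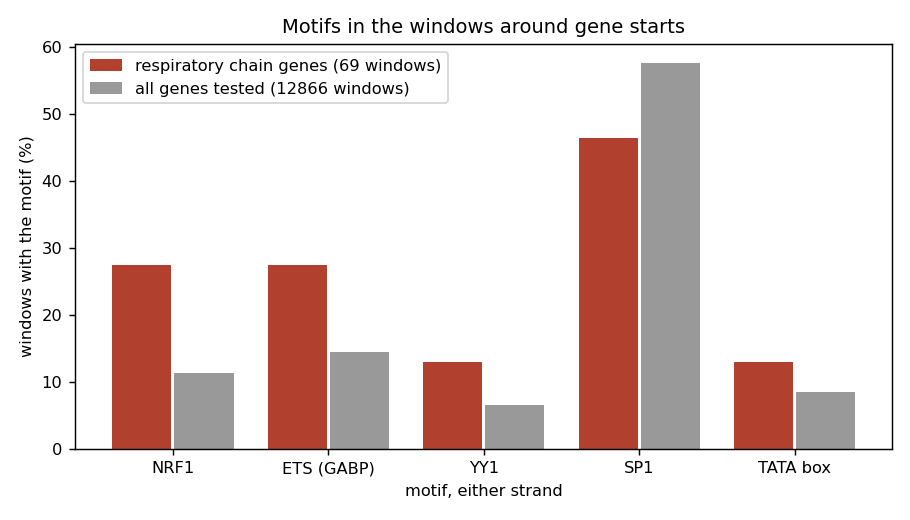
Share of promoter windows (percent) holding each motif, for the 69 members with a window and for the 12866 tested genes with a window. NRF1 and ETS matches each stood in 27.5% of member windows, against 11.3% and 14.4% of tested genes, while SP1 stood in 46.4% against 57.6%.

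Some facts of the whole series bear on every value below. The deposited intensities had array medians from 13.4 to 14.6. Elavl1 itself had intensities of 295, 289 and 315 in KO brains, against 310, 242 and 376 in WT brains. Its log2 fold change was −0.05 (SE 0.15), and the groups overlapped (two-sided exact permutation p = 0.7, where 20 assignments allow no p below 0.1). A fall of Elavl1 was thus not detected in whole-brain RNA, and the array does not show which cells had recombined. The arrays numbered 3 stood apart in both groups. Xist, the RNA that coats the inactive X chromosome, had a log2 level of 7.68 on KO array 3 and 7.69 on WT array 3, against 2.52 to 2.79 on the other 4 arrays. Marker genes of neurons were bright on all arrays, with a summed intensity of 15987 to 20706 in KO brains and 15186 to 21015 in WT brains.

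The first question was whether respiratory chain genes differed between KO and WT brains. No member passed the Benjamini-Hochberg threshold of 0.05 in limma, nor did any of the 16635 genes (0%). No member had an unadjusted p under 0.05, against 282 of all genes (1.7%). Members tended to be brighter genes, with median log2 levels of 8.23 to 8.68 on an array, against 5.82 to 5.88 over all genes. With the test limited to the upper 50% of genes by level, 0.794% of genes had such a p in limma. Log2 fold changes of KO over WT were above 0 in 48 members and below 0 in 33, with a median of 0.0067, against 9122 above, 7513 below and a median of 0.0127 over all genes. These directions depended on scaling and on single arrays: 62 members lay above 0 with each array centred on its median, which moved the median of all genes to 0.055, and 30, 24 and 21 without KO array 1, KO array 2 and WT array 3. They ran from −0.42 to 0.20, and 62 of the 81 members (76.5%) lay within 0.1 of 0, against 62.2% of all genes. The 95% confidence interval of the difference lay inside 1.5-fold in either direction for 68 members (84%), against 80.6% of all genes. It lay inside 1.3-fold for 37 members (45.7%), against 36.1% of all genes. Differences inside these intervals remain possible with 3 arrays a group, where the standard error of a member had a median of 0.15. The intervals are not adjusted for the number of genes, so larger differences need not pass the adjusted threshold either. In whole-brain RNA, fewer cells of a type and less RNA per cell cannot be told apart.

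**Figure D2:**
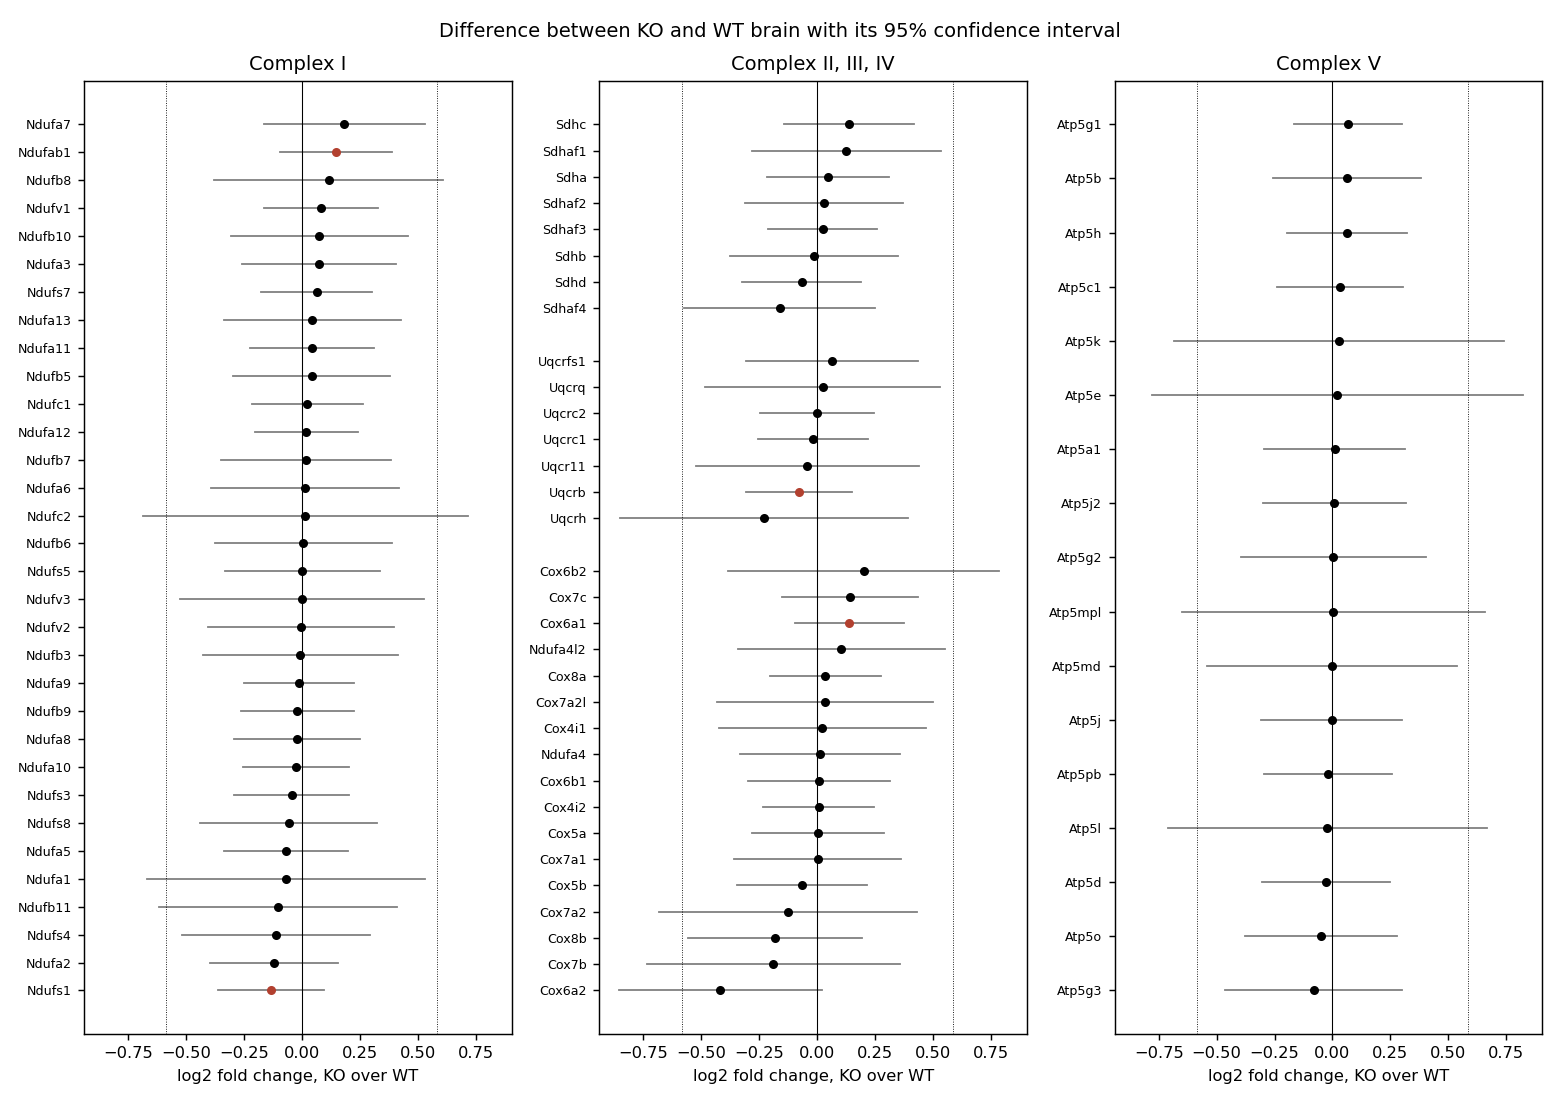
Log2 fold change of KO over WT for each of the 81 tested members, grouped by complex, with its 95% confidence interval from limma (bars). Red dots are members whose KO and WT arrays do not overlap, and dotted lines mark 1.5-fold. All points lie close to 0, from −0.42 (Cox6a2) to 0.20 (Cox6b2), and every interval spans 0.

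In 4 of the 81 members (4.94%) all KO arrays lay on one side of all WT arrays, against 5.7% of all genes. KO was above WT in 2 of them, against 3.14% of all genes, and below in 2, against 2.55%. Ndufab1, the mitochondrial acyl carrier protein that is also a subunit of complex I, had log2 levels of 5.73, 5.76 and 5.93 in KO brains, against 5.63, 5.67 and 5.68 in WT brains. The KO arrays were all higher, with a gap of 0.06 between the groups and a log2 fold change of 0.15 (SE 0.10, adjusted p = 1.00 in limma). Cox6a1, the widely expressed form of a complex IV subunit, had 11.83, 11.92 and 11.78 in KO brains, against 11.67, 11.68 and 11.76 in WT brains. Its gap was 0.02 and its log2 fold change 0.14 (SE 0.10). Ndufs1, the largest core subunit of complex I and a carrier of iron-sulfur clusters, had 8.88 on all 3 KO arrays, against 9.07, 9.03 and 8.93 in WT brains. Here KO was lower, by a gap of 0.05, with a log2 fold change of −0.13 (SE 0.10). Uqcrb, which helps form the ubiquinone-binding part of complex III, had 11.03, 11.12 and 11.11 in KO brains, against 11.20, 11.17 and 11.12 in WT brains. Its gap was 0.004 and its log2 fold change −0.08 (SE 0.10). None of the 4 differences had an unadjusted p under 0.05 in limma. Its standard errors also draw on the variance of other genes. The spread of a gene itself can be smaller, as in Ndufs1, with an SD of 0.003 in KO and 0.069 in WT brains.

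Complex I had 32 members, 18 above 0 and 14 below, and the median log2 fold change of KO over WT was 0.004. Core subunits numbered 6, which carry the flavin and the iron-sulfur clusters, and 4 of them lay below 0 and 2 above. Ndufv1, which holds the NADH-binding flavin site, had 8.77, 8.96 and 8.82 in KO brains, against 8.75, 8.83 and 8.73 in WT brains, a log2 fold change of 0.08 (SE 0.11). Its partner Ndufv2 had 9.45, 9.48 and 9.14 in KO brains, against 9.55, 9.50 and 9.03 in WT brains. These differed by less than 0.01, and the lowest array of either group was the one numbered 3. Ndufs7, at the end of the chain of clusters, gave 0.06 (SE 0.10), Ndufs8 −0.06 (SE 0.16) and Ndufs3 −0.04 (SE 0.11). The 26 accessory subunits had a median of 0.01. Among them the smallest p after Ndufab1 belonged to Ndufa7, with 7.10, 7.06 and 6.67 in KO brains and 6.70, 6.92 and 6.66 in WT brains. The groups overlapped, and the log2 fold change was 0.18 (SE 0.15, adjusted p = 1.00 in limma).

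Complex II, which is also succinate dehydrogenase of the tricarboxylic acid cycle, is encoded entirely in the nucleus. All 4 subunits were measured, together with the assembly factors Sdhaf1 to Sdhaf4, which the prefix takes in though they are not part of the finished complex. The flavoprotein Sdha had 10.62, 10.64 and 10.81 in KO brains, against 10.65, 10.53 and 10.74 in WT brains, a log2 fold change of 0.05 (SE 0.11). The iron-sulfur subunit Sdhb gave −0.01 (SE 0.16) and the membrane anchor Sdhd −0.07 (SE 0.11). Sdhc, the other anchor, had 8.87, 8.78 and 8.73 in KO brains and 8.80, 8.68 and 8.48 in WT brains. At 0.14 (SE 0.12) it had the smallest unadjusted p of the complex, and its groups overlapped. Of the assembly factors, Sdhaf4 gave −0.16 (SE 0.18) and Sdhaf1 0.13 (SE 0.17).

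Complex III had 7 members, 3 above 0 and 4 below, with a median of −0.02. Uqcrfs1, the Rieske iron-sulfur protein, had 6.88, 6.87 and 6.46 in KO brains, against 6.72, 6.83 and 6.47 in WT brains, a log2 fold change of 0.06 (SE 0.16). Uqcrh, the hinge protein that holds cytochrome c1, had 8.81, 8.90 and 7.96 in KO brains, against 8.98, 8.93 and 8.46 in WT brains. The array numbered 3 was the lowest in either group, and the log2 fold change was −0.23 (SE 0.27). It turned to 0.07 without KO array 3 and was −0.40 without KO array 2. With replicate number as a block, which removes what same-numbered arrays share, the Uqcrh standard error was 0.11 and its adjusted p 0.984 in limma.

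Complex IV had 19 members, of which 17 were tested, 12 above 0 and 5 below, with a median of 0.01. Its subunit Cox6a2 had the smallest p of all members. This is the form of subunit 6a known for heart and skeletal muscle, and it is a dim probeset here. Its deposited intensities were 28.7, 21.6 and 34.0 in KO brains, against 44.8, 34.9 and 33.1 in WT brains. On the log2 scale it had 4.89, 4.50 and 5.12 in KO brains and 5.51, 5.17 and 5.09 in WT brains. The KO arrays 1 and 2 were lower than every WT array, while KO array 3 lay above WT array 3. The log2 fold change was −0.42 (SE 0.19, 95% confidence interval −0.86 to 0.02, adjusted p = 1.00 in limma). With the replicate block it had an unadjusted p under 0.05 and an adjusted p of 0.984, where 806 genes (4.85%) had an unadjusted p under 0.05. Without both arrays numbered 3 its log2 fold change was −0.64 (adjusted p = 0.932). It was −0.25 without KO array 2. Cox6a1, which takes its place in most tissues, gave 0.14, as above. Of 12 muscle markers, 9 passed the brightness filter, 3 of them above 0 and 6 below. The summed intensity of the 12 was 194 to 208 in KO brains and 200 to 220 in WT brains. The tested ones were dim, with median log2 levels of 3.97 to 4.27 on an array, against 5.82 to 5.88 over all genes. Such dim probesets can show little movement. The part of muscle content in the Cox6a2 difference was not tested.

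**Figure D3:**
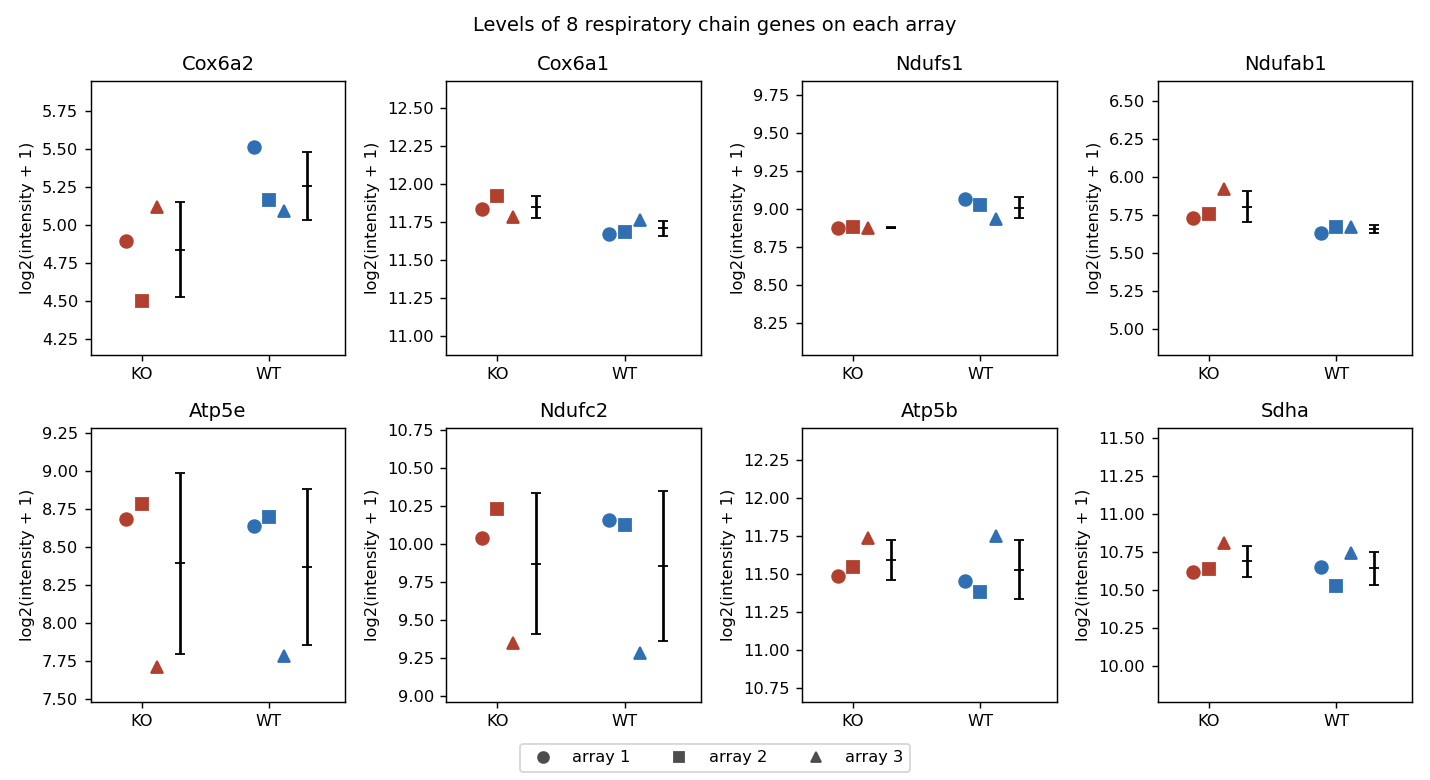
Log2 level on each array of 8 members, KO left and WT right. Markers stand for the array number, and the black bar and line give the mean and SD of a group (n = 3). Axes differ between genes, and levels of different genes cannot be compared. Atp5e and Ndufc2 show the arrays numbered 3 far below the others in both groups, and Atp5b shows them above.

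Several other subunits of complex IV are encoded by more than 1 gene, and none of these passed the adjusted threshold. Cox4i1, the main form of subunit 4, had 10.38, 10.55 and 9.86 in KO brains, against 10.36, 10.33 and 10.05 in WT brains, a log2 fold change of 0.02 (SE 0.19). Cox4i2, its form known for lung and for low oxygen, gave 0.01 (SE 0.10). Cox6b1 gave 0.01 (SE 0.13), and Cox6b2, known from testis, had 4.66, 4.70 and 3.87 in KO brains against 4.26, 4.47 and 3.89 in WT brains. Cox6b2 was dim, with deposited intensities of 24.1, 24.9 and 13.3 in KO brains and 17.9, 22.1 and 13.8 in WT brains. On the arrays numbered 3 these were near the array medians, which ran from 13.4 to 14.6. On arrays 1 and 2 the KO values were the higher, and the log2 fold change was 0.20 (SE 0.25). Without both arrays numbered 3 that of Cox6b2 was 0.31 (adjusted p = 0.932). It was 0.47 without KO array 3 and 0.04 without WT array 3. Cox7a1, the muscle form of subunit 7a, gave 0.00 (SE 0.16) and the common form Cox7a2 −0.13 (SE 0.24), with −0.36 without WT array 3 and 0.06 without KO array 3. Cox7a2l, a factor that joins complexes into supercomplexes, gave 0.03 (SE 0.20).

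Cox7b gave −0.19 (SE 0.23), with −0.43 without WT array 3 and 0.04 without WT array 2, and Cox8a 0.04 (SE 0.10). Cox8b, the muscle form of subunit 8, gave −0.18 (SE 0.16), and −0.02 without KO array 3. Cox7c, which has 1 form, had 4.32, 4.33 and 4.01 in KO brains and 4.16, 3.99 and 4.07 in WT brains, a log2 fold change of 0.14 (SE 0.13) with overlapping groups. Cox8b and Cox7c were dim, with deposited intensities of 10.0 to 16.5 and 14.7 to 19.0 over all arrays. Cox5a gave 0.01 (SE 0.12) and Cox5b −0.06 (SE 0.12), where a dimmer probeset of Cox5b gave 0.32. Ndufa4, first described in complex I and now placed in complex IV, gave 0.01 (SE 0.15), and Ndufa4l2, its hypoxia-responsive relative, gave 0.11 (SE 0.19). Ndufa4l2 was also dim, with deposited intensities of 12.2 to 20.3 over all arrays. The 2 members under the brightness filter were Cox7b2 and Cox8c, both known from testis. Cox7b2 averaged 3.22 ± 0.119 in KO brains and 3.18 ± 0.048 in WT brains, and Cox8c averaged 2.71 ± 0.181 in KO brains and 2.76 ± 0.0827 in WT brains (log2, SD, n = 3 each).

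Complex V had 17 members, and all their log2 fold changes lay between −0.08 and 0.07, 10 above 0 and 7 below. The catalytic head is built from Atp5a1 (alpha) and Atp5b (beta). Atp5a1 had 10.96, 10.94 and 11.21 in KO brains, against 10.91, 10.97 and 11.20 in WT brains, a log2 fold change of 0.01 (SE 0.13). Atp5b had 11.49, 11.55 and 11.74 in KO brains, against 11.45, 11.38 and 11.75 in WT brains, a log2 fold change of 0.06 (SE 0.14). In both genes the array numbered 3 was the highest of its group. Atp5c1, the gamma subunit that turns inside the head, gave 0.03 (SE 0.12), and Atp5h, in the stalk that holds the head still, 0.06 (SE 0.11). A dimmer probeset of Atp5h gave −0.45. The 3 genes for subunit c, which forms the rotating ring in the membrane, encode the same mature protein. Atp5g1 gave 0.07 (SE 0.10), Atp5g2 0.00 (SE 0.17) and Atp5g3 −0.08 (SE 0.16).

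The members' levels also differed between arrays of 1 group. Relative to the mean of each gene over 6 arrays, the members' median log2 level was 0.03, 0.10 and −0.14 on KO arrays 1, 2 and 3, and 0.07, 0.07 and −0.14 on WT arrays 1, 2 and 3. The medians of the arrays numbered 3 were below those of the other arrays in each of the 5 complexes. Over all genes these medians stayed between −0.014 and 0.007. The arrays are described here by the number in their labels, and no test was made of this pattern.

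**Figure D4:**
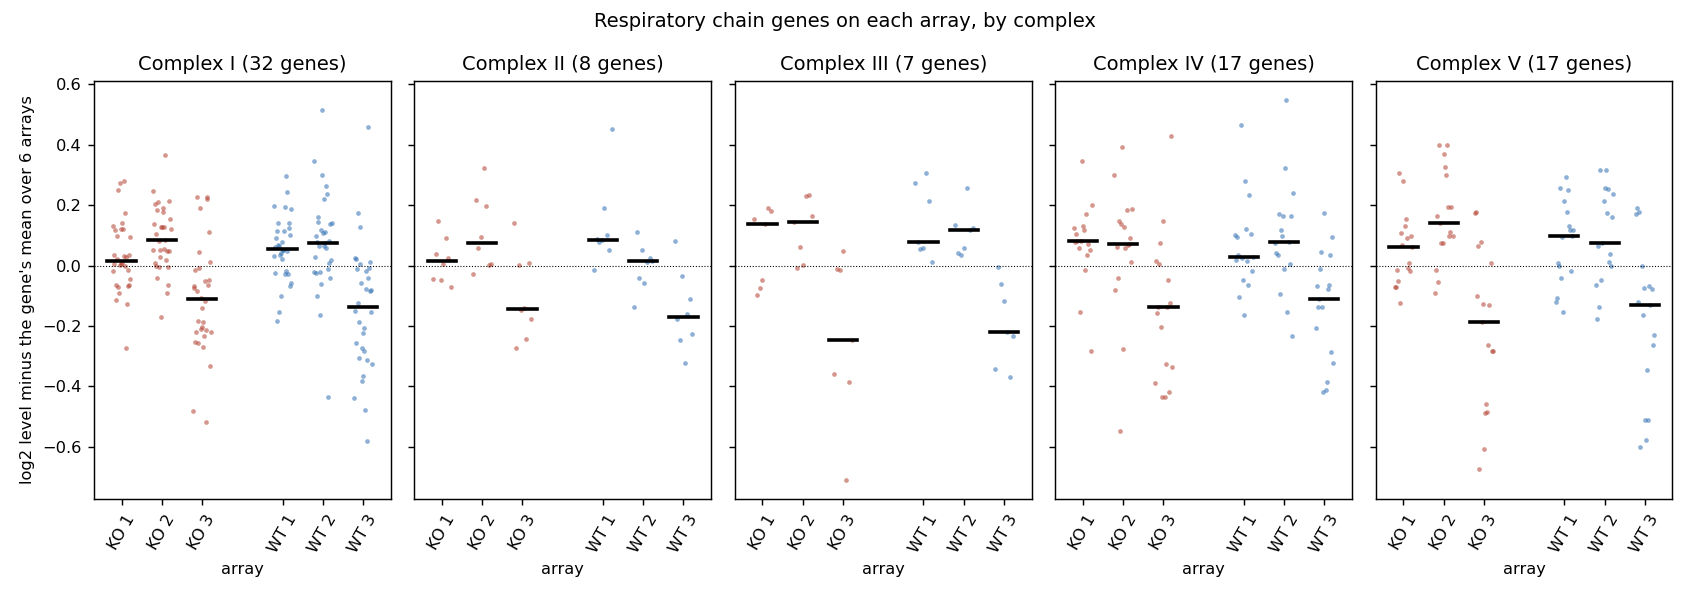
Log2 level of each tested member on each array, minus the mean of the gene over the 6 arrays, by complex. Dots are genes and black bars their median on an array. In each complex the bars of KO 3 and WT 3 lie below 0 and below those of the other arrays.

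The shift of array 3 was taken in each group as its log2 level minus the mean of arrays 1 and 2. Its median over the members was −0.20 in KO brains and −0.21 in WT brains, against 0.00 in KO and 0.02 in WT over all genes. In 60 of 81 members (74.1%) it was below 0 in both groups, against 35.3% of all genes, and in 12 (14.8%) it was above 0 in both, against 38.2%. It was below −0.5 in both groups in 11 members (13.6%), against 3.05% of all genes. The KO and WT shifts, which share no array, had a Pearson correlation of 0.80 over the 81 genes and 0.75 over all genes. Genes are not independent replicates, and each group gives this shift from 1 array. Quantile normalization holds the median of all genes steady between arrays, and members were not set beside genes of like brightness.

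The lowest mean shift of all members belonged to Atp5e. It had log2 levels of 8.68, 8.78 and 7.71 in KO brains and 8.63, 8.69 and 7.78 in WT brains, with shifts of −1.03 in KO and −0.89 in WT. A dimmer probeset of the same gene did not show the drop, with 6.15, 5.69 and 5.82 in KO brains and 5.63, 6.12 and 5.83 in WT brains. Atp5k had 8.93, 9.02 and 8.05 in KO brains and 8.86, 8.91 and 8.14 in WT brains, so that array 3 was again lowest in both. Ndufc2, a membrane subunit of complex I, had 10.03, 10.23 and 9.34 in KO brains and 10.16, 10.12 and 9.28 in WT brains. Uqcrh of complex III shifted by −0.89 in KO and −0.50 in WT, and Cox6b2 of complex IV, a dim probeset, by −0.81 in KO and −0.48 in WT. Atp5l, subunit g of complex V, shifted by −0.72 in KO and −0.88 in WT. Ndufa1, an X-linked accessory subunit, shifted by −0.67 in KO and −0.71 in WT. Of the other X-linked members, Cox7b shifted by −0.35 in KO and −0.72 in WT, and Ndufb11 by −0.08 in KO and −0.65 in WT.

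Shifts in the opposite direction were found in fewer members. Ndufv3, a subunit of the NADH-binding arm, shifted by 0.33 in KO and 0.69 in WT, and Ndufa3 by 0.28 in KO and 0.31 in WT. Within complex V, 13 members shifted down in both groups and 4 up in both, with a correlation of 0.97 between KO and WT shifts. The 5 genes of the F1 head and rotor had median shifts of 0.12 in KO and 0.25 in WT, and Atp5e was the lowest of them. Both medians are the values of Atp5d. A dimmer probeset of Atp5d did not show this rise, with 6.77, 6.72 and 6.51 in KO brains and 6.82, 7.03 and 6.87 in WT brains. The 9 genes of the stalk and membrane sector had −0.36 in KO and −0.25 in WT, and the 3 subunit c genes −0.36 in KO and −0.39 in WT. Both probesets of Atp5g2 were lower on the arrays numbered 3.

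**Figure D5:**
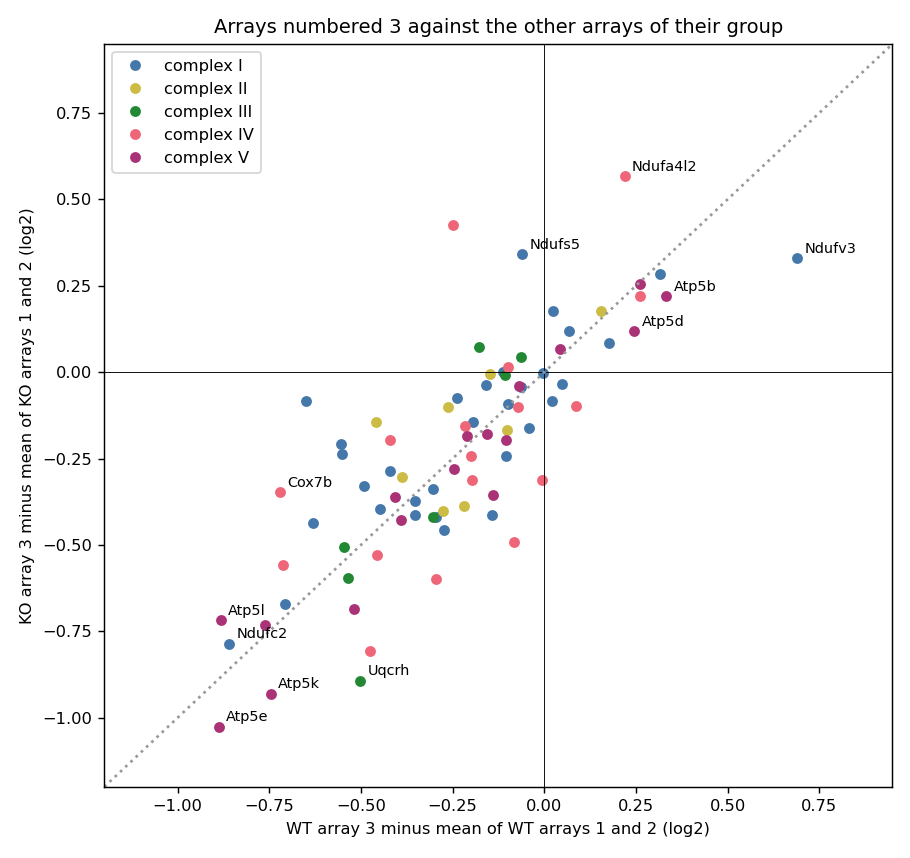
Shift of the array numbered 3 (its log2 level minus the mean of arrays 1 and 2) in WT brains against the same shift in KO brains, for the 81 tested members. Most points lie in the lower left, down to Atp5e at −1.03 in KO and −0.89 in WT, with Ndufv3, Ndufa3, Atp5b and Atp5a1 among the 12 members above 0 in both.

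Other gene lists and markers moved between the same arrays. Mitochondrial ribosomal proteins had median shifts of −0.17 in KO and −0.21 in WT, with 43 of 71 genes below 0 in both. The import machinery had −0.17 in KO and −0.19 in WT. Complex I assembly factors had −0.20 in KO and −0.19 in WT, and electron carriers with ubiquinone synthesis −0.20 in KO and −0.21 in WT. Genes of the tricarboxylic acid cycle had −0.01 in KO and −0.10 in WT. Assembly factors of complexes II to V had −0.17 in KO and −0.09 in WT, and biogenesis regulators 0.08 in KO and −0.03 in WT. Glycolysis genes had 0.12 in KO and 0.23 in WT, with 10 of 14 above 0 in both groups and none below 0 in both. Neuronal markers had 0.33 in KO and 0.45 in WT, with 13 of 14 above 0 in both. Their summed intensity was 20706 on KO array 3 and 21015 on WT array 3, against 15186 to 16232 on the other arrays.

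Markers of vessels, meninges and microglia moved further. The 7 tested endothelial markers had median shifts of 1.36 in KO and 0.93 in WT, all above 0 in both groups. Meningeal fibroblast markers had −0.71 in KO and −0.60 in WT, with 7 of 8 below 0 in both, and microglial markers −0.57 in KO and −0.34 in WT, with 8 of 9 below 0 in both. Astrocyte markers had −0.21 in KO and −0.23 in WT, oligodendrocyte markers 0.03 in KO and 0.09 in WT, and muscle markers −0.03 in KO and −0.08 in WT. The part of cell composition in the members' shift was not tested. Whatever the mice with arrays numbered 3 shared, sex, dissection and handling included, cannot be told apart with 1 such array a group.

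With the array number as a block, the median standard error of a member was 0.09. One member, Cox6a2, then had an unadjusted p under 0.05, against 806 of all genes (4.85%), and none passed the adjusted threshold, like all other genes (0%). Without both arrays numbered 3, 47 members lay above 0 and 34 below. KO and WT then did not overlap in 27 of 81 members (33.3%), against 34.7% of all genes.

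The genes that build and supply the chain were set beside it for the comparison of KO with WT. No gene of these lists passed the adjusted threshold. Of 17 genes for electron carriers and ubiquinone synthesis, 8 lay above 0 and 9 below. Cycs, which encodes somatic cytochrome c, had 11.10, 11.05 and 10.79 in KO brains, against 11.15, 11.12 and 10.76 in WT brains, a log2 fold change of −0.03 (SE 0.15). The smallest p of this list belonged to Coq10a, a ubiquinone-binding protein (−0.15, SE 0.11), and Pdss2, which makes the ubiquinone tail (0.11, SE 0.12).

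Of 15 complex I assembly factors, 10 lay above 0 and 5 below, with a median of 0.05. Foxred1 gave 0.17 (SE 0.11) and Ndufaf2 0.25 (SE 0.19). Of 29 assembly factors of complexes II to V, 17 lay above 0 and 12 below. Taco1, which activates translation of the mitochondrially encoded subunit 1 of complex IV, had 5.90, 5.83 and 5.95 in KO brains, against 6.12, 6.25 and 6.16 in WT brains. All KO arrays were lower, with a log2 fold change of −0.29 (SE 0.10, unadjusted p under 0.05, adjusted p = 1.00 in limma), a fold of 0.82. Cox19, a copper-handling factor of complex IV, gave 0.21 (SE 0.12). The 13 mitochondrially encoded subunits were not analysed here.

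Of 20 regulators of mitochondrial biogenesis, 19 were tested, 12 above 0 and 7 below. Pprc1, a coactivator related to PGC-1, had 5.78, 5.78 and 5.63 in KO brains, against 5.48, 5.57 and 5.51 in WT brains. Its KO arrays were all higher, with a log2 fold change of 0.21 (SE 0.10). Polrmt, the mitochondrial RNA polymerase, gave 0.25 (SE 0.14), with an adjusted p of 0.984 in limma with the replicate block. Of the factors whose motifs were counted above, Nrf1 gave 0.11 (SE 0.14), Gabpa −0.16 (SE 0.19) and Yy1 −0.01 (SE 0.13).

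Of 23 genes of the import machinery, 12 lay above 0 and 11 below. Timm8a1, a chaperone of the space between the mitochondrial membranes, had 6.50, 6.81 and 6.32 in KO brains, against 5.81, 6.19 and 6.11 in WT brains. All KO arrays were higher, with a log2 fold change of 0.51 (SE 0.16, unadjusted p under 0.05, adjusted p = 1.00 in limma), a fold of 1.42. With the mean of its probesets Timm8a1 gave 0.29. Timm44, which ties the import motor to the channel, gave −0.17 (SE 0.12). Of 71 mitochondrial ribosomal proteins, 38 lay above 0 and 33 below. Mrps36, annotated as a ribosomal protein and also known as a subunit of the oxoglutarate dehydrogenase complex, had 3.43, 3.63 and 3.48 in KO brains, against 3.06, 3.14 and 3.13 in WT brains. The groups did not overlap, with 0.40 (SE 0.11, unadjusted p under 0.05, adjusted p = 1.00 in limma) for a dim probeset, and 0.16 with a pseudocount of 16. Mrpl27 gave −0.46 (SE 0.21) with overlapping groups.

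Of 17 genes of the tricarboxylic acid cycle and pyruvate dehydrogenase, 10 lay above 0 and 7 below. Dld, a component that several dehydrogenases share, gave −0.10 (SE 0.11), and Sucla2, of succinyl-CoA synthetase, −0.09 (SE 0.10). Of 14 glycolysis genes, 11 lay above 0 and 3 below, with a median of 0.06. Hk2, a hexokinase that docks on mitochondria, had 5.07, 4.98 and 4.88 in KO brains, against 4.81, 4.62 and 4.86 in WT brains, a log2 fold change of 0.22 (SE 0.12) with no overlap. Tpi1 gave 0.09 (SE 0.11).

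Cell type markers were also set between KO and WT. All 14 neuronal markers lay above 0, with a median of 0.06, none of them past an unadjusted p of 0.05. This direction rested on single arrays: the median was −0.030 without KO array 3, −0.016 without WT array 1 and 0.19 without WT array 3. Of 10 oligodendrocyte markers, 1 lay above 0 and 9 below, with a median of −0.15. That median was −0.05 without WT array 1 and −0.25 without WT array 2. In 4 of these markers the groups did not overlap, against 5.7% of all genes, and KO was the lower in all 4, against 2.55%. An unadjusted p under 0.05 in limma was found for 1 of the 10, against 1.7% of all genes, and none passed the adjusted threshold. Their summed intensity was 5223 to 5511 in KO brains and 5217 to 6436 in WT brains. The medians were 0.07 for astrocyte, 0.03 for microglial, 0.00 for endothelial and 0.15 for meningeal fibroblast markers. With 1 array left out, the endothelial median ran from −0.42 (without KO array 3) to 0.25 (without WT array 3). The fibroblast median ran from −0.05 (without WT array 3) to 0.34 (without KO array 3), the microglial one from −0.12 to 0.14 and the astrocyte one from 0.02 to 0.14. The part of these shifts in the members' differences was not tested.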

How the data were processed

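Whole-brain RNA of 3 KO and 3 WT mice was measured on 1 array each. The authors deposited linear intensity values of 41340 probesets. The submitters' processing notes list MAS5, with no version. For background correction, scaling and filters the sources used here give nothing. The annotation gave 23521 probesets 1 gene symbol and 1814 several, and 16005 were unnamed. Symbols are those of the array's annotation and can be old.

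From these, log2(intensity + 1) was quantile normalized, because array medians differed by 0.119. The brightest probeset by mean stood for each gene, and the dimmest 25% of genes (5545) were not tested. Folds on this scale understate changes of dim genes. KO and WT were compared with limma 3.58.1 in R 4.3.3 (lmFit, eBayes, two-sided) and Benjamini-Hochberg adjustment over 16635 genes. All confidence intervals are at 95%. The number of arrays limits precision. The procedure was run on simulated data with noise drawn independently for each array. The arrays numbered 3 share deviations here, so that run does not show how well small differences are found. Figures were drawn with matplotlib 3.10.9.

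Deviations of same-numbered arrays from their group means correlated at 0.31, 0.37 and 0.75, above the limit of 0.1. An alternative fit, with the block, therefore took the numbers as pairs. This pairing comes from the data. KO array 1 correlated with WT array 2 at 0.37, and KO array 2 with WT array 1 at 0.40. Only the arrays numbered 3 thus matched best by number. Deviations from a group mean balance out, so where array 3 stands apart in both groups, arrays 1 and 2 deviate the other way in both. For arrays 1 and 2, passing the limit of 0.1 therefore does not show pairing by number. The fit without the block is the reported one.

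Members, lists and motifs were chosen with earlier results of these data known. Genes were named by rule: the 3 smallest p per complex, catalytic core subunits, families with several genes, members with groups that do not overlap or that fell under the filter, and the 2 smallest p of each other list. Members named for shifts of the arrays numbered 3, and Cycs, Nrf1, Gabpa and Yy1, were chosen after values were seen. Alternatives covered normalization, pseudocount, filter, probeset rule, variance model, array weights, the block, Xist as a covariate and each array left out.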

Additional observations from a re-analysis of the deposited data

How the results depend on the processing

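No member and no other gene passed the adjusted threshold under any of the 17 alternatives (limma). The count of members at an unadjusted p under 0.05 was 0 in the reported comparison. It was 1 with array weights and 1 with the replicate block (Cox6a2 in both), where 4.54% and 4.85% of all genes had such a p. Without replicate 3 of both groups it was 2 (Cox6a2 and Cox6b2), where 5.13% of all genes did. Leaving out 1 array in turn gave 0 to 3, with 3 without KO array 3 (Cox6a2, Cox6b2 and Ndufa7) and 1 without WT array 3 (Cox6a2). The count was 0 under the others. The members' median log2 fold change ran from −0.072 without WT array 3 to 0.069 without KO array 3. With each array centred on its median it was 0.053, where that of all genes was 0.055, and 62 members lay above 0. Without WT array 3, 21 did. The number of genes with an unadjusted p under 0.05 was 282 in the reported comparison, 88 in the upper 50% of genes by level and 854 without replicate 3 of both groups. Of the 57 genes named by the rule, 26 turned sign under at least 1 alternative. The causes of these changes were not tested. The paired comparison changed no call at the adjusted threshold.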

Other observations

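Of the members, 10 had a second probeset that the rule passed over, and some gave other values. The passed-over probeset of Atp5h had log2 levels of 3.57, 3.99 and 3.93 in KO brains and 4.19, 4.37 and 4.28 in WT brains, a difference of −0.45, where the probeset used gave 0.06. That of Ndufa11 gave −0.34, where the probeset used gave 0.04, and that of Atp5d −0.24 where the probeset used gave −0.03. That of Cox5b gave 0.32, where the probeset used gave −0.06, with 4.89 on KO array 1, against 3.72 and 3.75 on the other KO arrays and 3.60 to 3.94 in WT brains. The passed-over probesets of Atp5h, Cox5b and Ndufa11 were dim. These differences were not tested.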
